A study of Homo sapiens with 18 samples.

Results

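The heterogeneous nuclear ribonucleoproteins (hnRNPs) are abundant RNA-binding proteins that coat nascent transcripts in the nucleus. The 10 genes described here are HNRNPA1, HNRNPA2B1, HNRNPC, HNRNPD, HNRNPF, HNRNPH1, HNRNPK, HNRNPL, HNRNPM and HNRNPU, taken by symbol from the 60675 human genes of the count table, under a rule that holds no measured value. All 10 were among the 26804 genes that passed the filter on low counts. The cells were HEK293T, a line of human embryonic kidney origin, carrying a doxycycline-inducible fusion of an ADAR adenosine deaminase with YTHDF1, YTHDF2 or YTHDF3, which are cytoplasmic readers of N6-methyladenosine. The fused deaminase changes nearby adenosines to inosines, which are read as G, so that edited sites mark transcripts the fusion has met. All 6 groups received 1 µg/mL doxycycline for 24 h and 100 µg/mL cycloheximide for 10 min, which holds ribosomes on mRNA. For each of the YTHDF1-ADAR, YTHDF2-ADAR and YTHDF3-ADAR lines, 3 libraries were made from total RNA and 3 from the pooled polysome fractions (more than 2 ribosomes) of a sucrose gradient. No group without a fusion was analysed here, and the labels do not say whether a line is 1 clone or whether replicates were separate cultures, so p-values measure the spread between these libraries, which may be technical.

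hnRNP proteins take part in splicing, in the packaging and export of mRNA, and, for those that shuttle to the cytoplasm, in mRNA stability and translation. Many hnRNP genes control their own output through alternative splicing, which can yield transcripts that stay in the nucleus or are degraded. HNRNPC and HNRNPA2B1 are also known as proteins whose RNA binding is influenced by N6-methyladenosine.

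Libraries held 42.7e6 to 67.5e6 counts, of which the 10 genes took between 0.497% and 0.839%. YTHDF1, YTHDF2 and YTHDF3 each had its highest mean level in total RNA in the line named for it. Of the genes checked as markers of HEK293T cells, the neurofilament genes NEFL and NEFM had means of 116.9 to 1009 CPM (counts relative to the TMM-scaled size of each library), and of 10 genes of other cell types PTPRC, CD3E, ALB, PECAM1, CDH5, DCN and COL1A2 were too low to test. COL1A1 and CD68 stood higher in every total RNA library of the YTHDF3-ADAR line than in the other lines, at means of 28.08 against 8.742 and 6.602 CPM and of 3.758 against 2.483 and 2.674 CPM, and their part in the results was not tested. Replicates 2 and 3 of the YTHDF3-ADAR line stood apart from its replicate 1 in both fractions, and count results of HNRNPC, HNRNPU and HNRNPA1 and counts between lines that rest on that line are given with and without them. Leaving both out keeps 1 library per fraction of that line, which the fit assumes to vary like the other groups, so such values are given as descriptions. In total RNA of YTHDF3-ADAR cells, 19.8% and 14.3% of 6107 abundant protein-coding genes lay more than 0.5 on the log2 scale below the mean of the other lines in replicates 2 and 3, against 2.01% in replicate 1. Total RNA replicate 1 of YTHDF1-ADAR cells also stood apart, with 55.2% of its counts in protein-coding genes against 65.4% and 68.3% in replicates 2 and 3. In it 6.89% of the 6107 genes lay that far below the same mean, against 0.131% and 0.115% in replicates 2 and 3. Of the 10 genes, 0 lay that low in it.

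HNRNPA1 was the most abundant of the 10 per length in all 6 groups, and HNRNPU the least abundant. In total RNA of YTHDF1-ADAR cells, HNRNPA1, a splicing repressor that shuttles between nucleus and cytoplasm, stood at 237.9 ± 13.88 CPM per kilobase of gene model (mean ± SD, n = 3). HNRNPK, which binds C-rich RNA and DNA, followed at 120.7 ± 14.88 and HNRNPM at 95.52 ± 2.075 CPM per kilobase. HNRNPA2B1 and HNRNPC came next at 91.66 ± 7.059 and 84.96 ± 4.148, ahead of HNRNPF at 74.6 ± 4.473 CPM per kilobase. HNRNPH1, HNRNPD and HNRNPL lay between 62.89 and 57.45, and HNRNPU at 50.93 ± 1.157 CPM per kilobase. The libraries of HNRNPM and HNRNPA2B1, of HNRNPA2B1 and HNRNPC, of HNRNPH1 and HNRNPD, and of HNRNPD and HNRNPL overlapped, while the other neighbours in that order did not. On polysomes of the same cells HNRNPC ranked 3, at 108.4 ± 5.196 CPM per kilobase, and HNRNPU was at 30.42 ± 4.955. The gene models are of unequal extent, with 22512 bases for HNRNPU and 3253 to 12613 for the other 9, and the order by TPM was the same in each group.

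**Figure D1:**
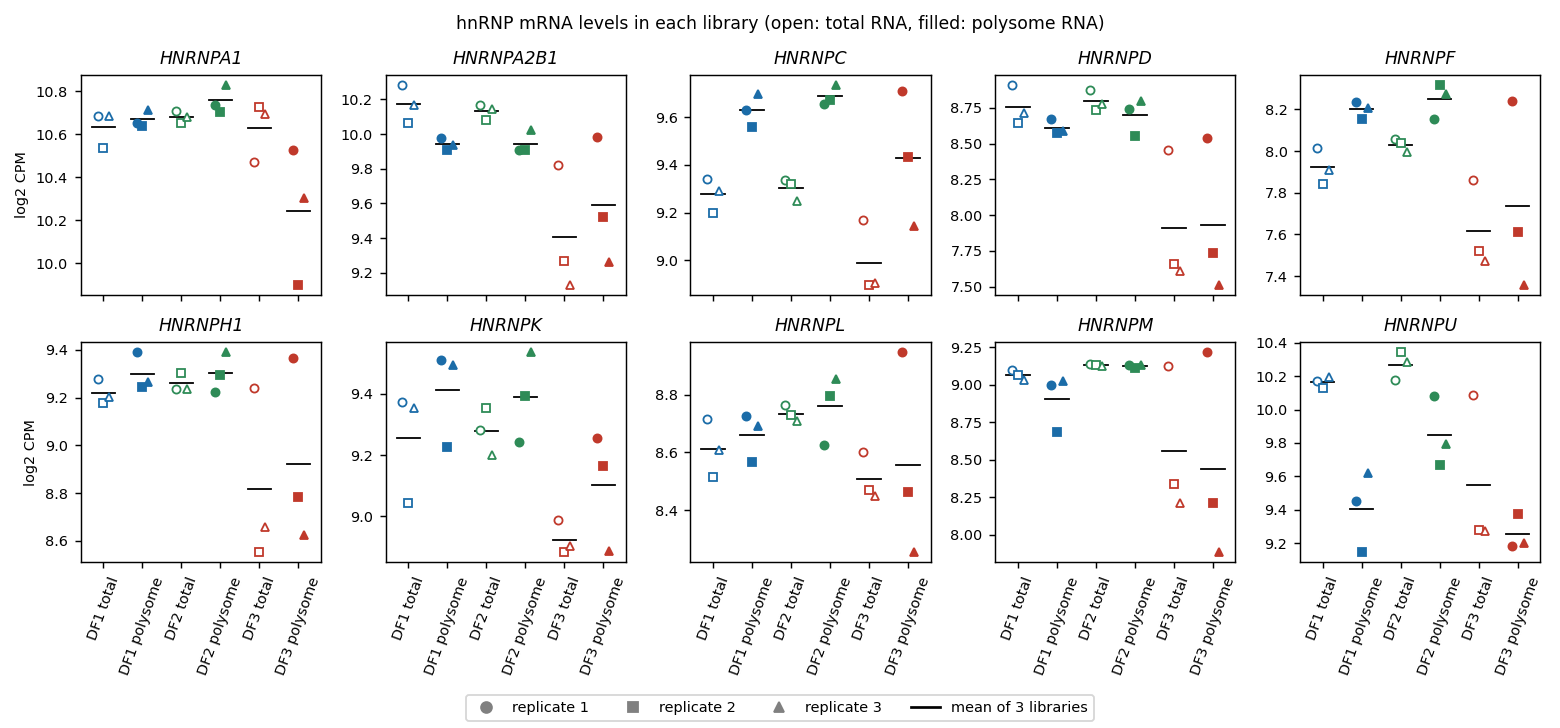
Level of each hnRNP mRNA (log2 CPM, vertical axis, a separate range for each gene) in the 18 libraries, grouped by line and fraction on the horizontal axis, where DF1, DF2 and DF3 stand for the YTHDF1-ADAR, YTHDF2-ADAR and YTHDF3-ADAR lines. Symbols mark replicates and bars the mean of 3 libraries: HNRNPC was higher and HNRNPU lower on polysomes in the YTHDF1-ADAR and YTHDF2-ADAR lines without overlap, and replicates 2 and 3 of YTHDF3-ADAR cells lie low for most of the genes.

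HNRNPC had the largest positive polysome change of the 10 in each line, and HNRNPU the largest negative one in the YTHDF1-ADAR and YTHDF2-ADAR lines. The sequences around their annotated starts are shown first, with those of HNRNPA2B1 and HNRNPD, whose total RNA differed most between lines, because the first transcribed bases of an mRNA bear on its translation. Each run gives 20 bases before the start in lower case and the first 10 transcribed bases in capitals, read 5′ to 3′ on the minus strand from RefSeq (GRCh38.p14), at chr14:21269433-21269462 for HNRNPC, chr1:244864534-244864563 for HNRNPU, chr7:26200737-26200766 for HNRNPA2B1 and chr4:82373982-82374011 for HNRNPD.
HNRNPC: taggccttcgcctcggcggcAGAGGAGACT
HNRNPU: gcgcggcgccgctcctgcgaGAGGACGTTG
HNRNPA2B1: gcggcagcggctctagcggcAGTAGCAGCA
HNRNPD: ccgggacgcgccgttcttccGTCGGCCATT
None of the 4 begins with C followed by at least 4 bases that are C or T, the start typical of mRNAs of ribosomal proteins and other translation factors. Among the 15 start entries of the 9 genes with any, 0 had that start, against 4.07% of 35116 entries of all genes, and no match says only that these letters are not at these annotated starts. HNRNPA1 had no entry, so its start was not examined. With so few entries, 0 cannot be told apart from the share of all genes.

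HNRNPC encodes a nuclear protein that binds uridine tracts as a tetramer. HNRNPC (chromosome 14, 21209136 to 21269494, minus strand, GRCh38) stood at 647.8, 588.1 and 627 CPM in YTHDF1-ADAR total RNA and at 791.1, 754.8 and 830.7 CPM on polysomes of that line. In YTHDF2-ADAR cells it stood at 647.3, 638.2 and 608.3 CPM in total RNA and at 806.4, 816.2 and 853 CPM on polysomes. In YTHDF3-ADAR cells the values were 575.3, 476.5 and 478.8 CPM in total RNA and 836.6, 691 and 564.8 CPM on polysomes. Every polysome library lay above every total RNA library in the YTHDF1-ADAR and YTHDF2-ADAR lines, whereas polysome replicate 3 of YTHDF3-ADAR cells lay below total RNA replicate 1. The log2 fold change was 0.39 ± 0.12 (± SE) in YTHDF2-ADAR cells (quasi-likelihood test of edgeR, p adjusted by Benjamini-Hochberg = 0.0429) and 0.45 ± 0.12 in YTHDF3-ADAR cells (adjusted p = 0.0173), and HNRNPC passed the test in both. In YTHDF1-ADAR cells it was 0.35 ± 0.12 with an adjusted p of 0.053 by the same edgeR test, and with the replicate number as a block the same 0.35 passed (adjusted p = 0.0109). With only the YTHDF3-ADAR libraries in the fit, HNRNPC did not pass there (0.45 ± 0.22, adjusted p = 0.336). The YTHDF2-ADAR call lay near the threshold. With 1 library left out at a time it passed there in 5 of 18 fits, all of which lacked a YTHDF3-ADAR library, with log2 changes of 0.36 to 0.41 and adjusted p up to 0.143. The YTHDF3-ADAR call was lost without its total RNA replicate 2 (0.41, adjusted p = 0.0767) or replicate 3 (0.41, adjusted p = 0.0678). Without replicate 1 of that line in both fractions its change was 0.47 ± 0.10 and passed (adjusted p = 0.00221), and the single pair of libraries left without replicates 2 and 3 gave 0.55. HNRNPC has 9 pseudogene rows in the table that took 4.4% to 5.62% of the summed counts of gene and copies, so that some reads could be assigned either way.

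HNRNPU, also called scaffold attachment factor A, binds nuclear RNA and chromatin. HNRNPU (chromosome 1, 244840638 to 244864560, minus strand) stood at 1151, 1118 and 1170 CPM in YTHDF1-ADAR total RNA and at 701.5, 566 and 787.2 CPM on polysomes of that line. It stood at 1158, 1301 and 1249 CPM in total RNA of YTHDF2-ADAR cells and at 1084, 813.7 and 888.5 CPM on polysomes. In YTHDF3-ADAR cells it stood at 1089, 620.9 and 617.6 CPM in total RNA and at 582.1, 664 and 588.2 CPM on polysomes. All polysome libraries lay below all total RNA libraries in the YTHDF1-ADAR and YTHDF2-ADAR lines, and in YTHDF3-ADAR cells only total RNA replicate 1 stood clear of the polysome libraries. HNRNPU fell by 0.74 on the log2 scale (SE 0.19) in YTHDF1-ADAR cells (edgeR, adjusted p = 0.0108). That call was lost when YTHDF1-ADAR polysome replicate 2 was left out (-0.62, adjusted p = 0.0619). The log2 changes of -0.41 ± 0.19 in YTHDF2-ADAR cells (adjusted p = 0.155) and -0.34 ± 0.19 in YTHDF3-ADAR cells (adjusted p = 0.217) did not pass. With only the YTHDF2-ADAR libraries in the fit, the change there passed at -0.45 ± 0.11 (adjusted p = 0.0155). In YTHDF3-ADAR cells the log2 change of HNRNPU was 0.09 without replicate 1 and -0.90 in replicate 1 alone, a single library per fraction.

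Of the 10 genes, 0 rose and 1 fell on polysomes in YTHDF1-ADAR cells, where 9.26% of all genes tested rose and 11.9% fell. In YTHDF2-ADAR cells 1 rose and 0 fell, where 6.71% of all genes rose and 9.04% fell, and in YTHDF3-ADAR cells 1 rose and 0 fell, where 8.01% rose and 12.1% fell. The median log2 change of the 10 was 0.04, 0.04 and 0.09 in the 3 lines, against 0.03, 0.03 and -0.05 for all genes tested and 0.13, 0.13 and 0.05 for protein-coding genes. Without TMM factors, which shifts the median of all genes to 0.46, 0.40 and 0.25, 6, 5 and 5 of the 10 rose and 0 fell in any line, while 10894 of all genes rose and 1527 fell in YTHDF1-ADAR cells against 2481 and 3193 with TMM. Protein-coding genes took 55.2% to 74.8% of counts in total RNA and 88.6% to 90.6% on polysomes.

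Groups that did not overlap were more frequent than calls. Of the 10 genes, 2 lay higher and 3 lower in every polysome library than in any total RNA library of YTHDF1-ADAR cells, as did 26.4% and 22.3% of all genes. HNRNPF, a binder of G-rich splicing elements, was at 258.2, 229.3 and 240.5 CPM in total RNA and 301.7, 285.1 and 295.5 CPM on polysomes of YTHDF1-ADAR cells. Its log2 change of 0.28 had an adjusted p of 0.254 in edgeR, and it passed with the replicate block (0.28, adjusted p = 0.0326). HNRNPA2B1, an RNA-binding protein of transport granules and microRNA processing, was lower on polysomes without overlap in the YTHDF1-ADAR and YTHDF2-ADAR lines, at log2 changes of -0.23 and -0.19 that did not pass. HNRNPM, a splicing regulator, was lower without overlap in YTHDF1-ADAR cells, with a log2 change of -0.15 and an adjusted p of 0.733. In YTHDF2-ADAR cells 2 genes, HNRNPC and HNRNPF, were higher and 2, HNRNPA2B1 and HNRNPU, lower without overlap, where 25.4% and 21.5% of all genes were. In YTHDF3-ADAR cells the fractions of all 10 genes overlapped, where 10.6% of all genes were higher and 15.2% lower without overlap. Without TMM factors the changes of HNRNPA2B1, HNRNPD and HNRNPM turned positive in both the YTHDF1-ADAR line and the YTHDF2-ADAR line, as did that of HNRNPM in the YTHDF3-ADAR line.

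The remaining genes did not pass in any line. HNRNPD, also called AUF1, which binds AU-rich elements in mRNA, had log2 changes of -0.15, -0.10 and 0.04 in the 3 lines. HNRNPH1, which binds G-runs like HNRNPF, had changes of 0.08, 0.04 and 0.11, and HNRNPK of 0.15, 0.12 and 0.19. HNRNPL, which binds CA repeats, had the narrowest range, at 0.05, 0.03 and 0.08. The intervals in the plot of polysome association show the sizes the libraries leave possible.

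**Figure D2:**
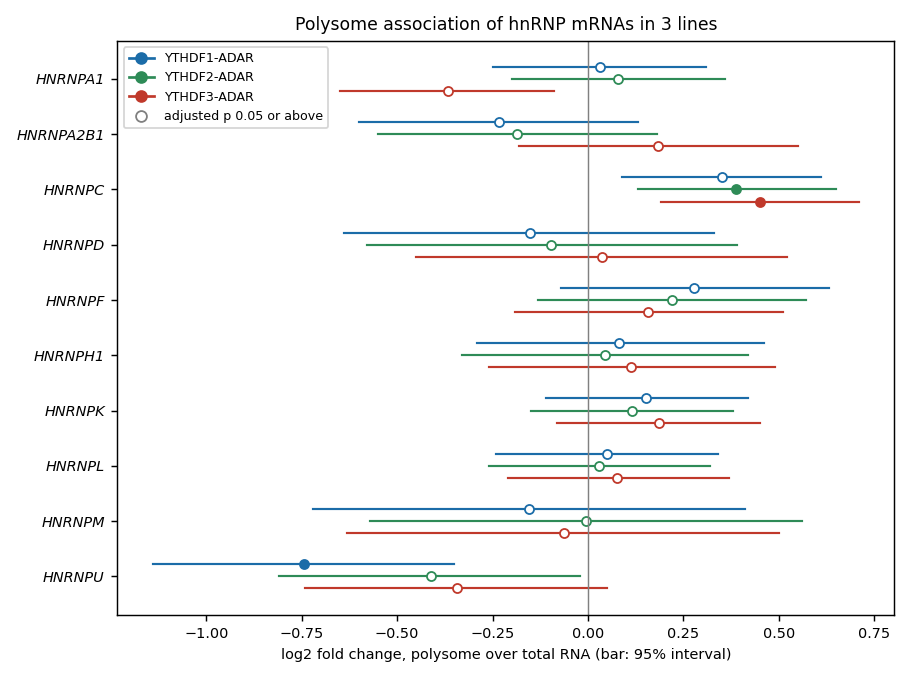
Log2 fold change of polysome over total RNA (horizontal axis) with its 95% interval (bar) for each hnRNP gene (vertical axis) in 3 lines; filled points passed the adjusted threshold of 0.05. HNRNPC lies right of 0 in each line and HNRNPU left of 0, with HNRNPU in YTHDF1-ADAR cells at -0.74.

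The difference in polysome association between lines was tested directly, and 0 of the 10 genes and 0% of all genes tested passed in any of the 3 comparisons. At an unadjusted p under 0.05, 166, 877 and 801 genes (0.619%, 3.27% and 2.99%) differed between YTHDF2-ADAR and YTHDF1-ADAR, YTHDF3-ADAR and YTHDF1-ADAR, and YTHDF3-ADAR and YTHDF2-ADAR cells. HNRNPA1 was the only one of the 10 among them. It stood at 1418, 1696 and 1656 CPM in total RNA of YTHDF3-ADAR cells and at 1476, 954.9 and 1265 CPM on their polysomes, where replicates 2 and 3 were low and replicate 1 was not. In the YTHDF1-ADAR and YTHDF2-ADAR lines all 12 libraries lay between 1486 and 1822 CPM, and both fractions overlapped. Its log2 change on polysomes was -0.37 ± 0.13 in YTHDF3-ADAR cells (edgeR, adjusted p = 0.06), against 0.03 and 0.08 in the other lines. With the replicate block it passed at -0.39 (adjusted p = 0.0452), and without replicate 1 of that line at -0.52 ± 0.12 (adjusted p = 0.0031), whereas in replicate 1 alone it was 0.07. The difference from the change in YTHDF1-ADAR cells was -0.40 ± 0.19 (unadjusted p = 0.0479) and from that in YTHDF2-ADAR cells -0.45 ± 0.19 (unadjusted p = 0.0292), with an adjusted p of 1 for both in edgeR. HNRNPA1 has 75 rows with a pseudogene symbol that took 9.73% to 13.3% of the summed counts of gene and copies. Among them is HNRNPA1P48, which is labelled protein-coding. HNRNPA1L2, a retrotransposed relative of HNRNPA1 with group means of 90.45 to 114.3 CPM, is not in that sum.

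The intervals of these differences remain wide. For HNRNPC the change in YTHDF3-ADAR cells differed from that in YTHDF1-ADAR cells by 0.10, with a 95% interval from -0.27 to 0.47. For HNRNPU the same difference was 0.40, with an interval from -0.16 to 0.96. Without replicate 1 of YTHDF3-ADAR cells the HNRNPU difference was 0.80 ± 0.18 and passed in edgeR (adjusted p = 0.0465), so this result turned on which YTHDF3-ADAR libraries entered.

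Levels were also compared between lines. HNRNPA2B1, HNRNPD and HNRNPU were lower in total RNA of YTHDF3-ADAR cells than in either other line. Between YTHDF2-ADAR and YTHDF1-ADAR cells 0 of 10 passed in total RNA, where 1.83% of all genes did, and 0 on polysomes, where 2.35% did. At an unadjusted p the corresponding shares of all genes were 9.16% and 11.1%. HNRNPU on polysomes was 0.44 higher on the log2 scale in YTHDF2-ADAR cells, with no overlap, as for 12.8% of all genes, and an adjusted p of 0.358 in edgeR. It passed without replicate 1 of YTHDF3-ADAR cells (edgeR, adjusted p = 0.0256), which share the fit's estimate of spread. In that fit 818 of 27310 genes were higher and 1517 lower on YTHDF2-ADAR polysomes, against 204 and 427 of 26804 with all libraries.

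HNRNPA2B1 (chromosome 7, 26171151 to 26201529, minus strand) stood at 904, 615.2 and 560.1 CPM in total RNA of YTHDF3-ADAR cells. It stood at 1249, 1071 and 1149 CPM in YTHDF1-ADAR and at 1150, 1086 and 1133 CPM in YTHDF2-ADAR cells, so that no YTHDF3-ADAR library reached either range. HNRNPA2B1 fell by 0.74 on the log2 scale (SE 0.17) against YTHDF1-ADAR cells (edgeR, adjusted p = 0.00954) and by 0.70 against YTHDF2-ADAR cells (adjusted p = 0.0103). HNRNPD (chromosome 4, 82352498 to 82374503, minus strand) stood at 350.9, 201.9 and 195.2 CPM in total RNA of YTHDF3-ADAR cells, below all libraries of YTHDF1-ADAR cells at 481.8, 400.5 and 419.6 and of YTHDF2-ADAR cells at 470.6, 426.6 and 437.9 CPM. Its log2 changes were -0.80 ± 0.23 (edgeR, adjusted p = 0.026) and -0.84 ± 0.23 (adjusted p = 0.0175). HNRNPU was also lower, by log2 changes of -0.56 ± 0.19 (edgeR, adjusted p = 0.0469) and -0.67 ± 0.19 (adjusted p = 0.0184), with replicate 1 at 1089 CPM just under the other lines and replicates 2 and 3 far under them.

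Thus 3 of 10 genes were lower and 0 higher in total RNA of YTHDF3-ADAR cells in each comparison, where 6.52% of all genes were lower and 11.6% higher than in YTHDF1-ADAR cells and 7.57% lower and 15.2% higher than in YTHDF2-ADAR cells. On polysomes 1 of 10 was lower than in YTHDF1-ADAR cells, where 11.4% of all genes were lower and 11.9% higher, and 4 were lower than in YTHDF2-ADAR cells, where 11.5% were lower and 13.6% higher. Without overlap, 5 and 7 of the 10 were lower in total RNA than in YTHDF1-ADAR and YTHDF2-ADAR cells, against 13.4% and 15.6% of all genes, and 2 and 3 on polysomes, against 19.2% and 19.6%. The single gene was HNRNPA1, at -0.40 ± 0.13 (edgeR, adjusted p = 0.0383), and against YTHDF2-ADAR cells HNRNPA1, HNRNPD, HNRNPF and HNRNPU had log2 changes of -0.49, -0.70, -0.47 and -0.60. The comparisons share the YTHDF3-ADAR libraries. The median log2 change of the 10 was -0.36 and -0.41 in total RNA and -0.33 and -0.40 on polysomes, while the medians of all genes lay between -0.02 and 0.02. With only the compared groups in the fit, 0 of the 10 passed in any of the 4 comparisons. In those fits 347 of 24548 and 1496 of 24727 genes passed in total RNA against YTHDF1-ADAR and YTHDF2-ADAR cells. On polysomes 2202 of 24390 and 2681 of 24294 genes passed. With 1 library left out at a time, the call of HNRNPA2B1 held in 16 of 18 fits against each line and was lost without YTHDF3-ADAR total RNA replicate 2 or 3, as was that of HNRNPD, which held in 14 and 16 fits and against YTHDF1-ADAR cells was also lost without total RNA replicate 1 or 3 of that line. HNRNPU held in 4 and 14 of 18 fits in total RNA. On polysomes HNRNPA1 held in 11 of 18 fits against YTHDF1-ADAR cells (-0.56 to -0.25, adjusted p up to 0.167) and in 16 against YTHDF2-ADAR cells, and against the latter HNRNPD held in 13, HNRNPU in 14 and HNRNPF in 2. With RLE factors HNRNPA1 did not pass against YTHDF1-ADAR cells (adjusted p = 0.0574 in edgeR).

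The lower levels lay mostly in replicates 2 and 3 of YTHDF3-ADAR cells. Without replicate 1, 8 and 9 of the 10 genes passed in total RNA and 9 and 10 on polysomes. In that fit 12632 and 13745 of all 27310 genes tested passed in total RNA, of which 6018 and 6605 were lower in YTHDF3-ADAR cells. On polysomes 13010 and 13393 of all genes passed, of which 6316 and 6351 were lower. With replicate 1 as the only YTHDF3-ADAR library of each fraction, 0 and 0 passed in total RNA and 0 and 1 on polysomes, a count that rests on n = 1 and on the spread of the other groups. In total RNA 5 of the 10 genes lay more than 0.5 on the log2 scale below the mean of the other lines in replicate 2 and 6 in replicate 3, against 0 in replicate 1. On polysomes the numbers were 5 and 7 against 0, beside 19.4%, 22.4% and 5.42% of the 6107 abundant protein-coding genes in replicates 2, 3 and 1. HNRNPD was furthest down, at -1.12 and -1.17 in total RNA of replicates 2 and 3 and -0.92 and -1.14 on polysomes, against -0.32 and -0.12 in replicate 1. HNRNPM followed on polysomes at -0.80 and -1.13, against 0.20 in replicate 1. HNRNPA1 in total RNA was an exception, at 0.07 and 0.04 in replicates 2 and 3 and -0.19 in replicate 1. HNRNPU on polysomes was another, at -0.25 and -0.43 in replicates 2 and 3 and -0.44 in replicate 1. HNRNPK in total RNA differed little between replicates, at -0.38 and -0.36 in replicates 2 and 3 and -0.28 in replicate 1. As a share of protein-coding counts, the 10 genes together took 0.690% and 0.708% in total RNA of replicates 3 and 2 and 0.896% in replicate 1, against 0.916% to 1% in the other lines. The part of any difference in culture, induction or library preparation was not tested, and in such bulk samples fewer cells with a transcript and less transcript per cell cannot be told apart.

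**Figure D3:**
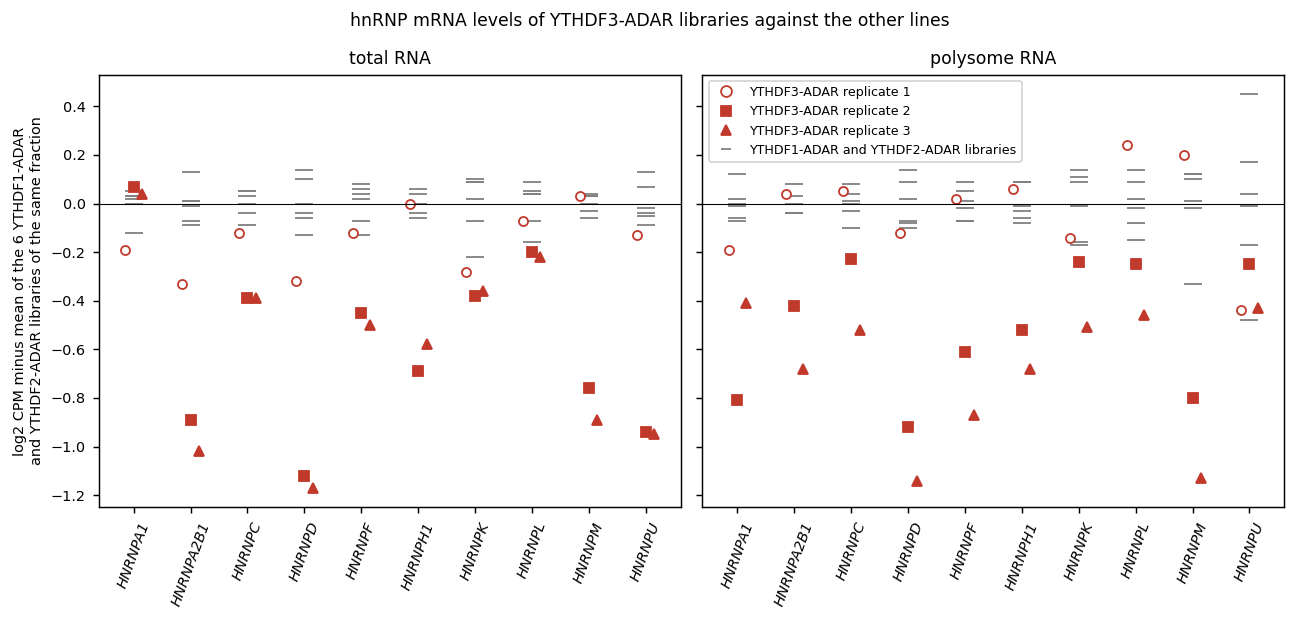
Log2 CPM of each YTHDF3-ADAR library minus the mean of the 6 libraries of the other lines in the same fraction (vertical axis), for each hnRNP gene (horizontal axis), with grey ticks for the libraries of the other lines. Replicates 2 and 3 lie far under the ticks for HNRNPD in both fractions, near -1.1 in total RNA, while HNRNPA1 is low in replicates 2 and 3 on polysomes only.

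Over the 18 libraries, levels of HNRNPA2B1 and HNRNPD were most alike of any pair of the 10 (Pearson r = 0.97), and HNRNPC and HNRNPU least (r = -0.04). The 5 protein-coding genes whose log2 CPM most resembled the mean standardised level of the 10, of 6097 candidates, were STIP1 (r = 0.988), FAM98A (r = 0.981), UMPS (r = 0.975), SF3B4 (r = 0.975) and ABCF2 (r = 0.974). These values are descriptions over libraries that include the low YTHDF3-ADAR replicates.

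Other hnRNP and related genes were examined beside the 10. Of 25 such genes, 1 rose and 1 fell on polysomes in YTHDF1-ADAR cells, 1 rose and 1 fell in YTHDF2-ADAR cells, and 4 rose and 0 fell in YTHDF3-ADAR cells, with median log2 changes of 0.17, 0.15 and 0.20 against 0.13, 0.13 and 0.05 for protein-coding genes. The shares of all genes that rose and fell were 9.26% and 11.9%, 6.71% and 9.04%, and 8.01% and 12.1% in these lines, and they apply to the next lists too. The values of these lists in YTHDF3-ADAR cells are from all 3 replicates. PTBP3, a polypyrimidine tract-binding protein, rose in all 3 lines, by log2 changes of 0.69, 0.49 and 0.72. HNRNPUL2, a relative of HNRNPU, had changes of -0.42, -0.37 and -0.23 in the 3 lines, of which the last did not pass. PTBP2, the neuronal relative of PTBP3, did not pass in any line (0.36, 0.30 and 0.48), and HNRNPLL, a relative of HNRNPL, passed in YTHDF3-ADAR cells, at 0.40, and not in the others (0.30 and 0.31). Neither PTBP3 nor HNRNPUL2 differed in its change between lines beyond the error (adjusted p = 1 in edgeR).

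Of 11 genes for hnRNP import, export or modification, 1 rose and 1 fell in YTHDF1-ADAR cells, 1 rose and 0 fell in YTHDF2-ADAR cells, and 0 rose and 1 fell in YTHDF3-ADAR cells. TNPO2, a nuclear import receptor, fell by 0.37 on the log2 scale in YTHDF1-ADAR and YTHDF3-ADAR cells, and CSNK1A1, a casein kinase, rose by 0.26 and 0.30 in YTHDF1-ADAR and YTHDF2-ADAR cells. TNPO1, the import receptor of HNRNPA1, had changes of 0.34, 0.34 and 0.64 that did not pass, and neither did PRMT1, an arginine methyltransferase, at 0.21, 0.27 and 0.21. Of 15 tested genes with exons known to be under hnRNP control, 2 rose and 1 fell, 2 rose and 0 fell, and 1 rose and 1 fell in the same order of lines. SMN1 rose in all 3 lines, by log2 changes of 0.30, 0.30 and 0.23, and shares reads with its near-identical copy SMN2. MST1R, a receptor tyrosine kinase, passed in YTHDF1-ADAR cells at -0.98. Its level was very low, at means of 0.4011 CPM in total RNA and 0.2012 CPM on polysomes of that line. BCL2L2 passed in YTHDF3-ADAR cells at -0.55, and the changes of FAS, 0.49, 0.38 and 0.37, did not pass.

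HNRNPC had the most edited sites of the 10 genes with each fusion. The authors' editing tables listed 7 of the 10 genes for YTHDF1-ADAR, 7 for YTHDF2-ADAR and 9 for YTHDF3-ADAR, where 43.3%, 36.2% and 53.9% of the 425 protein-coding genes at least as abundant as the least abundant of the 10 were listed. HNRNPC had 43 sites with YTHDF1-ADAR, 49 with YTHDF2-ADAR and 22 with YTHDF3-ADAR, against medians of 4, 3 and 4 sites over all listed genes. It held 71.7%, 68.1% and 34.4% of the sites on the 10 genes. By number of sites HNRNPC ranked 46 of 6858 genes, 10 of 4547 and 391 of 7042. Editing per site, the authors' score divided by the number of sites, was 8.68%, 10.4% and 11.8% for HNRNPC in total RNA and 9.69%, 10.2% and 12% on polysomes, where the median gene had 2.01%, 1.19% and 1.76% in total RNA. The authors' adjusted p for the difference between fractions was 0.827 with YTHDF1-ADAR and 1 with the others. Levels of ADARB1, the gene of an ADAR deaminase, were 247.4, 38.89 and 1456 CPM in total RNA of the 3 lines, and numbers of sites are given side by side without a test.

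The other genes of the 10 had between 1 and 14 sites where listed. HNRNPA2B1 had 7, 6 and 14 sites with YTHDF1-ADAR, YTHDF2-ADAR and YTHDF3-ADAR, edited at 3.31%, 0.263% and 1.51% per site in total RNA. HNRNPD had 5, 7 and 5 sites and HNRNPU 1, 3 and 9. HNRNPU sites were edited at 4.29% in total RNA and 18% on polysomes with YTHDF2-ADAR, and the authors' adjusted p of that difference was 1. HNRNPA1 had 1, 2 and 2 sites, and HNRNPH1 2, 1 and 5. HNRNPK was listed with 4 sites in the YTHDF2-ADAR and YTHDF3-ADAR tables, HNRNPM with 1 and 2 sites in the YTHDF1-ADAR and YTHDF3-ADAR tables, and HNRNPF with 1 site in the YTHDF3-ADAR table. HNRNPL was listed in none of the 3 tables.

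By the authors' adjusted p under 0.05, editing differed between polysome and total RNA for 0 of 7 listed genes with YTHDF1-ADAR and 0 of 7 with YTHDF2-ADAR, where 2.11% and 1.39% of all listed genes differed, and for 3 of 9 with YTHDF3-ADAR, where 3.55% did. All 3 were more edited on polysomes, while of the 250 genes that differed with YTHDF3-ADAR 55 were more and 195 less edited there. HNRNPA1 went from 2.22% to 10.4% per site over 2 sites (authors' adjusted p = 4.97e-25), HNRNPD from 1.18% to 2.85% over 5 sites (0.000133), and HNRNPM from 0.310% to 1.07% over 2 sites (0.0143). HNRNPA1P48, a copy of HNRNPA1 by its symbol, was listed with 9, 13 and 15 sites for YTHDF1-ADAR, YTHDF2-ADAR and YTHDF3-ADAR. With YTHDF3-ADAR that copy had 3.96% per site in total RNA and 3.72% on polysomes. Some reads of HNRNPA1 and its copies could be assigned either way, and their part in these editing values was not tested. With YTHDF1-ADAR HNRNPA1 had 2.85% and 1.12% at its 1 site (authors' adjusted p = 0.992), HNRNPD 2.59% and 3.70%, and HNRNPM 0.972% and 0.515% in total and polysome RNA. With YTHDF2-ADAR HNRNPA1 had 1.35% and 2.55% and HNRNPD 0.523% and 2.21%, and neither pair differed by the authors' adjusted p (1 and 0.651). These tables give 1 value over the replicates, so the part of YTHDF3-ADAR replicates 2 and 3, on whose polysomes HNRNPA1, HNRNPD and HNRNPM mRNA were low, was not tested. Depth behind the sites is unknown.

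**Figure D4:**
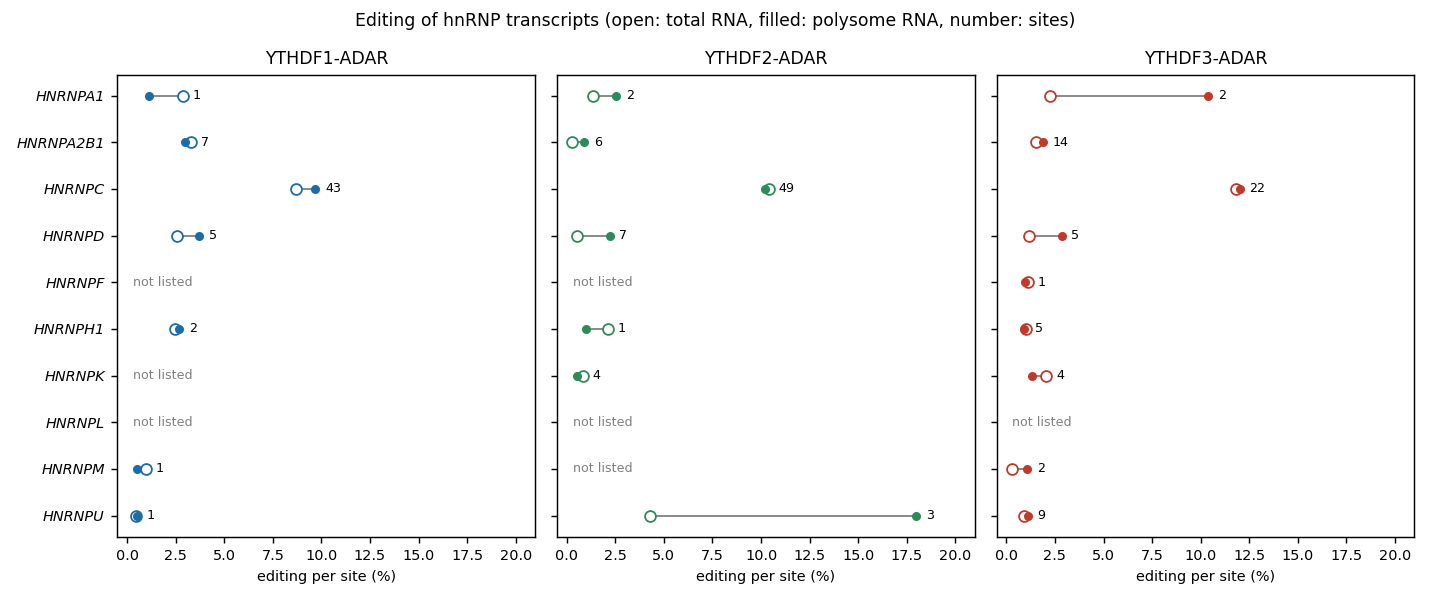
Editing per site in percent (horizontal axis; the authors' score divided by the number of sites) for each hnRNP gene (vertical axis) in total RNA (open) and polysome RNA (filled), with 1 panel for each fusion and the number of sites beside each pair. HNRNPC has 43, 49 and 22 sites and about the same percentage in both fractions, and HNRNPA1 with YTHDF3-ADAR goes from 2.22% to 10.4%.

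Of the 25 related genes, 19, 14 and 16 were listed in the 3 editing tables, with at most 16, 10 and 25 sites. MATR3 had 16 sites with YTHDF1-ADAR and 25 with YTHDF3-ADAR, and PTBP2 had 10 with YTHDF2-ADAR, so that HNRNPC had more sites than any of the 25 with YTHDF1-ADAR and YTHDF2-ADAR but not with YTHDF3-ADAR. By the authors' adjusted p under 0.05, editing of 1 of 19, 0 of 14 and 4 of 16 listed related genes differed between fractions. The shares of all listed genes were 2.11%, 1.39% and 3.55%. All related genes that differed were less edited on polysomes, the direction opposite to the 3 called among the 10 with YTHDF3-ADAR. HNRNPA1L2, a retrotransposed relative of HNRNPA1, was among them, going from 16.8% to 12.2% per site with YTHDF3-ADAR (authors' adjusted p = 0.00619).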

How the data were processed

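The deposited table holds counts of reads per gene, made by the authors with STAR 2.7.7 and featureCounts 2.0.1 on GRCh38, per the submitters' processing notes; strand setting and annotation release: not given in the sources used here. In the authors' editing tables each gene has a number of sites, an editing score, a change headed as log2 that is in fact a natural log, that of the odds ratio between fractions of score over sites, and an adjusted p-value; their test: not given in the sources used here. For the editing scores no depth is known. The 1 row that names no human gene was left out of library sizes and tests.

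Counts were fitted in R 4.3.3 with edgeR 4.0.16 (filterByExpr, minimum count 10, TMM factors, robust quasi-likelihood, 6 group means over 18 libraries), with a threshold of 0.05 on p adjusted by Benjamini-Hochberg. A standard error is the log2 change over the root of F. The fit was also run on simulated data. Those data held no split of replicates like that of YTHDF3-ADAR cells, so they cannot speak to calls that turn on that split. CPM uses TMM-scaled totals. Reads carried no molecular identifiers, so errors cover these libraries only. No 2 libraries of a group agreed within sampling noise (chi-square per degree of freedom at least 6.981). DESeq2 1.42.0, other scalings, other filters, a replicate block and left-out libraries were alternatives.

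The labels do not say that replicate numbers pair fractions. Within a line, same-numbered polysome and total RNA libraries deviated together (r of 0.247, 0.279 and 0.623 in YTHDF1-ADAR, 0.377, 0.606 and 0.2 in YTHDF2-ADAR and 0.671, 0.358 and 0.415 in YTHDF3-ADAR cells). For polysome against total RNA the block was therefore set within lines, although some other-numbered pairs were as close (YTHDF3-ADAR polysome 2 with total RNA 3, r = 0.511). For levels between lines the block was a replicate number shared by the lines. Same-numbered libraries of different lines did not deviate together throughout (r from -0.364 to 0.508), so block results between lines rest on a pairing that is not shown.

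The 10 genes and the other lists were chosen with earlier results of these data known. Named are the 10, up to 4 genes per list with the largest absolute mean polysome change over the lines, and the 5 genes most like the 10. The related genes and the copy named for editing (HNRNPA1L2, MATR3, PTBP2 and HNRNPA1P48) were chosen after their values were seen. Some items are withheld, so their values were left out.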

Additional observations from a re-analysis of the deposited data

Results flagged for a closer look

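HNRNPA2B1 was lower on polysomes than in total RNA in all 3 same-numbered pairs of YTHDF1-ADAR cells (log2 differences of -0.31, -0.16 and -0.23) and of YTHDF2-ADAR cells (-0.26, -0.18 and -0.12), and higher in all 3 pairs of YTHDF3-ADAR cells (0.16, 0.26 and 0.13). The change in YTHDF3-ADAR cells exceeded that in YTHDF1-ADAR cells by 0.42 and that in YTHDF2-ADAR cells by 0.37. The edgeR quasi-likelihood test of these differences gave unadjusted p of 0.108 and 0.15 and an adjusted p of 1 for both, so they did not pass. With the replicate number as a block the differences were 0.41 ± 0.13 and 0.37 ± 0.13 (SE), with adjusted p of 0.636 and 0.654, and did not pass either.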

How the results depend on the processing

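Member counts below are given in the order rose and fell for polysome against total RNA. Without normalization factors, 6 and 0 passed in YTHDF1-ADAR cells, 5 rose in each of the other lines, 1 passed in total RNA of YTHDF3-ADAR against YTHDF1-ADAR cells, and 0 and 1 passed on polysomes against YTHDF1-ADAR and YTHDF2-ADAR cells. Of all 26804 genes, 10894, 9093 and 6788 then rose in the 3 lines and 1527, 1364 and 1668 fell. In that total RNA comparison 6780 were higher and 534 lower. On polysomes 4071 were higher and 1570 lower than in YTHDF1-ADAR cells, and 4742 and 1333 than in YTHDF2-ADAR cells. With only the compared groups, 2 and 2 passed in YTHDF1-ADAR, 2 and 2 in YTHDF2-ADAR cells, 0 rose in YTHDF3-ADAR cells, and 0 passed in the 4 comparisons of YTHDF3-ADAR cells with other lines. In those fits 2943 of 24134 genes rose and 4327 fell in YTHDF1-ADAR cells. In YTHDF2-ADAR cells 3766 of 24188 rose and 4088 fell, and in YTHDF3-ADAR cells 0 of 24906 rose. With the replicate block, 2 rose in YTHDF1-ADAR and 1 fell in YTHDF3-ADAR cells, and 3 passed on polysomes of YTHDF3-ADAR against YTHDF1-ADAR cells. Of all 26804 genes, 5012 then rose in YTHDF1-ADAR and 5390 fell in YTHDF3-ADAR cells, and 3308 were higher and 3572 lower in that polysome comparison. RLE size factors gave 0 rising in YTHDF2-ADAR cells and 0 and 2 on polysomes of YTHDF3-ADAR against YTHDF1-ADAR and YTHDF2-ADAR cells, as did no filter on low counts. In YTHDF2-ADAR cells 1462 of 26804 genes rose with RLE factors and 997 of 50119 without the filter. On those polysomes, RLE factors gave 3489 higher and 2573 lower against YTHDF1-ADAR cells, and 3885 and 2610 against YTHDF2-ADAR cells. Without the filter the numbers were 2658 and 1930, and 3164 and 1826. DESeq2 gave 5 in total RNA of YTHDF3-ADAR against YTHDF2-ADAR cells, where 4096 of 26804 genes were higher and 3092 lower.

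Alternatives chosen after seeing the data left out YTHDF3-ADAR replicate 1, or replicates 2 and 3, of both fractions. Without replicate 1, 2 rose in YTHDF1-ADAR cells, 2 rose and 1 fell in YTHDF2-ADAR cells, 1 fell in YTHDF3-ADAR cells, 1 differed in polysome change between YTHDF3-ADAR and YTHDF1-ADAR cells, 8, 9, 9 and 10 passed between YTHDF3-ADAR and the other lines, and 1 between YTHDF2-ADAR and YTHDF1-ADAR polysomes. Of all 27310 genes, 6124 rose in YTHDF1-ADAR cells, 4931 rose and 3925 fell in YTHDF2-ADAR cells, and 3705 fell in YTHDF3-ADAR cells. The polysome change of 265 genes differed between YTHDF3-ADAR and YTHDF1-ADAR cells. Between YTHDF3-ADAR and the other lines 12632, 13745, 13010 and 13393 genes passed. On YTHDF2-ADAR polysomes 818 genes were higher and 1517 lower than on YTHDF1-ADAR polysomes. Without replicates 2 and 3, which leaves 1 YTHDF3-ADAR library per fraction that is assumed to vary like the other groups, 2 and 2, 2 and 1, and 2 and 1 passed in the 3 lines, 0, 0, 0 and 1 between YTHDF3-ADAR and the other lines, and 1 between YTHDF2-ADAR and YTHDF1-ADAR polysomes. Leaving out 1 library at a time gave 0 to 2 rising and 0 to 1 falling in YTHDF1-ADAR, 0 to 1 and 0 to 1 in YTHDF2-ADAR cells, and 0 to 2 and 0 to 1 in the YTHDF3-ADAR line, and 0 to 7 and 0 to 8 in total RNA and 0 to 9 and 0 to 10 on polysomes between YTHDF3-ADAR and YTHDF1-ADAR or YTHDF2-ADAR cells. The cause was not tested.

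Directions that turned were all of changes that did not pass. Without normalization factors HNRNPA2B1, HNRNPD and HNRNPM were at 0.20, 0.29 and 0.28 in YTHDF1-ADAR and 0.18, 0.27 and 0.36 in YTHDF2-ADAR cells, and HNRNPM at 0.21 in YTHDF3-ADAR cells. With only the compared groups HNRNPA1 and HNRNPL were at -0.02 and 0.00 in YTHDF1-ADAR cells and HNRNPL at -0.01 in YTHDF2-ADAR cells. HNRNPM in YTHDF3-ADAR cells was at 0.02 with no filter and 0.10 without replicates 2 and 3, and in YTHDF2-ADAR cells at 0.02 and 0.00 in the alternatives on YTHDF3-ADAR replicates. Without replicates 2 and 3, HNRNPA1 was at 0.07 in YTHDF3-ADAR cells and its difference from YTHDF1-ADAR cells at 0.03. Without replicate 1, HNRNPL and HNRNPU were at -0.03 and 0.09 in YTHDF3-ADAR cells. With 1 library left out, values that turned ranged over -0.01 to 0.06 for HNRNPA1 in YTHDF1-ADAR, -0.02 to 0.10 for HNRNPL and 0.00 to 0.02 for HNRNPM in YTHDF2-ADAR cells, and in the YTHDF3-ADAR line over -0.04 to 0.50 for HNRNPA2B1, -0.33 to 0.45 for HNRNPD, -0.13 to 0.37 for HNRNPF, -0.14 to 0.44 for HNRNPH1, -0.14 to 0.22 for HNRNPL, -0.56 to 0.36 for HNRNPM and -0.48 to 0.06 for HNRNPU.

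Over all alternatives the number of all genes rising on polysomes ranged from 1190 to 10894, 658 to 9093 and 0 to 6788 in the 3 lines. At an authors' adjusted p under 0.01, 2 of the 3 hnRNP editing calls with YTHDF3-ADAR were left. The editing tables hold no value per library, so an alternative over replicates was not run.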
